A study of Homo sapiens with 83 samples.

Results

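The genes described here are 39 interferon-stimulated and nucleic acid sensing genes, listed by symbol among the 60237 gene entries of the expression table. The rule is a list of symbols and sets no threshold on a value. They comprise 6 transcription factors (STAT2, IRF1, IRF2, IRF3, IRF7, IRF9), 6 sensing genes (DDX58, IFIH1, DHX58, IFI16, CGAS, STING1), 13 effectors of the IFIT, IFITM, MX and OAS families, and 14 other effectors. They were measured by poly-A RNA-seq in 83 libraries of SHEP and SKNAS, human neuroblastoma cell lines that both carry N-MYC-ER, an N-MYC fusion to an estrogen receptor domain that is active only with 4-hydroxytamoxifen (4OHT). MYC-ON cells received 4OHT and MYC-OFF cells received ethanol vehicle for 24 h, and all cells of both groups then received dexamethasone, which sets the phase of the circadian clock. CT gives the hours since dexamethasone. RNA was taken every 4 h from CT 24 to CT 76. SHEP was sampled in 2 independent series of 14 time points, giving 28 MYC-OFF and 28 MYC-ON libraries. SKNAS was sampled in 1 series, giving 14 MYC-OFF and 13 MYC-ON libraries, the latter up to CT 72. All groups carry the fusion, and no line without it was compared. An effect of 4OHT itself therefore cannot be told apart here from activation of N-MYC-ER.

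Interferons are secreted proteins that signal through paired receptors and the kinases JAK1 and TYK2 to STAT2, which joins IRF9 in a complex called ISGF3. ISGF3 binds interferon-stimulated response elements (ISRE) in promoters and switches on the genes listed here. Cells start that loop when RNA sensors (DDX58, also called RIG-I, and IFIH1, also called MDA5) or the DNA sensor CGAS with its adaptor STING1 meet foreign or misplaced nucleic acid. Many of these genes also have a lower steady level in cells that are not infected, and it is that level which was read out here, since no sample was infected or treated with interferon.

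Values are TPM, the share of a library's transcripts scaled to a fixed total, which allow for gene length, and differences are on the scale of log2(TPM + 1), so they understate the change of genes near 0. Each difference is followed by its standard error (SE) and a Benjamini-Hochberg adjusted p from limma over all genes tested. A gene was tested in a line at a mean of at least 1 TPM over its MYC-OFF and MYC-ON libraries together. It was called changed at an adjusted p of at most 0.05 with a difference of at least 0.15. Libraries of 1 series are separate harvests of 1 experiment, so the SE measures the spread between time points more than between experiments. Of the 39 genes, 32 were tested in SHEP, 31 in SKNAS, 27 in both and 36 in either line. OAS2, DHX58 and CGAS were under the limit in both lines. OASL and IFI27 in SHEP, and RSAD2, IFI44L and IFI27 in SKNAS, averaged under 1 TPM in MYC-ON. They passed the limit only through MYC-OFF, which favours a fall, so they add little to the counts of falls. Without the limit, OASL and IFI27 in SHEP and RSAD2 and IFI44L in SKNAS were still called lower.

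The SKNAS libraries were uneven. The median of log2(TPM + 1) over genes lay between 3.93 and 4.17 in every SHEP library, but between 2.97 and 4.38 in SKNAS MYC-OFF and between 2.76 and 4.25 in SKNAS MYC-ON. A median of at least 3.8 was reached by 10 MYC-OFF and only 3 MYC-ON SKNAS libraries. Results in SKNAS are therefore given with and without an allowance for it. The summed level of 6 mesenchymal markers averaged 4030 TPM in SHEP MYC-OFF and 1580 TPM in SKNAS MYC-OFF, most of it VIM, while PRRX1 went the other way (0.633 against 67.7 TPM). Of the adrenergic markers PHOX2A averaged 232 TPM in SKNAS MYC-OFF and was at or near 0 in SHEP. Of 7 leukocyte markers, CD3E was at or near 0 in all groups. The summed level of the 7, mostly CD68 and in SKNAS also PTPRC, ranged from 33.6 to 66.2 TPM in SHEP MYC-OFF and from 14.3 to 55.9 TPM in SHEP MYC-ON. In SKNAS it ranged from 86.5 to 312 TPM in MYC-OFF and from 26.8 to 136 TPM in MYC-ON. In SKNAS the adrenergic sum averaged 456 TPM in MYC-OFF and 162 TPM in MYC-ON, and the epithelial sum, nearly all KRT8 and KRT18, 819 and 375 TPM, with no overlap between the groups in either sum. In SHEP the adrenergic sum averaged 32.9 TPM in MYC-OFF and 45.3 TPM in MYC-ON, and the epithelial sum 1780 and 1690 TPM. The mean leukocyte sum in both lines, and the adrenergic and epithelial sums in SKNAS, were lower in MYC-ON, as were most genes described below. The adrenergic sum in SHEP and the mean mesenchymal sum in SKNAS (1580 and 1710 TPM) were higher in MYC-ON. The part of these sums in the change was not tested.

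A 300-base promoter (250 bases before the start site to 50 after it) was found in the RefSeq table of build GRCh38.p14 for 26 of the 39 genes, DDX58 under its symbol RIGI. The ISRE core was searched as GAAANNGAAA on both strands. It was present in 16 of the 26 promoters (61.5%) and in 3.65% of all 27305 promoters of that length. The following stretches of 30 bases are shown because their genes differ in response although all hold the core, which is in capitals and reads TTTC when it lies on the other strand. IFIT3, IFIT1, BST2, ISG15, IFI6 and DTX3L fell in SHEP, ISG20 rose there, MX1, IFIT5 and IFITM3 were not called there, and IFI44 fell in SKNAS.
IFIT3: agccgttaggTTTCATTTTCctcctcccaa
IFIT1: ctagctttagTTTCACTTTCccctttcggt
BST2: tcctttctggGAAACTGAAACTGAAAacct
ISG15: catgcctcggGAAAGGGAAACCGAAActga
IFI6: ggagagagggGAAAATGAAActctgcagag
DTX3L: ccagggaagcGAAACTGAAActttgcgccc
ISG20: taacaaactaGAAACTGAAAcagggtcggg
MX1: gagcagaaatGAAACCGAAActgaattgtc
IFIT5: ttctattaagTTTCGGTTTCtgaagcttac
IFITM3: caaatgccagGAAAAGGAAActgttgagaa
IFI44: gcacactgagTTTCAGTTTCctttctctga

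The first core base lay 156 bases before the start site in IFIT3, 130 bases before it in BST2, 113 in ISG15 and 6 in DTX3L. In MX1 it lay at base 12 after the start. BST2 and ISG15 each held a pair of overlapping cores, so that 3 GAAA blocks follow one another. The search took only this exact spelling of the core. Promoters without it can hold a near match, such as ggaaacgaaa in OAS1, DDX58 and RSAD2 and ggaaatgaaa in IFI35. Genes with and without the exact core fell. Of 13 tested genes with it, 9 fell in SHEP, 1 rose and 3 were not called, with a median difference of -0.39. Of 9 tested genes without it, 8 fell and 1 was not called, with a median of -0.57. In SKNAS 7 of 14 tested genes with the core fell, 1 rose and 6 were not called (median -0.52), and 9 of 10 without it fell and 1 was not called (median -0.68). The difference between these sets was not tested. The E-box CACGTG, the sequence to which MYC and its partner MAX bind, was present in 2 of the 26 promoters, 7.69% against 7.43% of all promoters, and overlapped no ISRE core. Those 2 were IRF9, which fell in both lines, and ISG20, which rose in SHEP and fell in SKNAS. The whole promoter of IRF9 (chr14:24161015-24161314, plus strand) is shown with its E-box in capitals, since IRF9 was the factor whose fall was clearest in both lines, and that of IFIT3 (chr10:89327747-89328046, plus strand) with its 2 ISRE cores in capitals, since IFIT3 had the largest fall in SHEP.
IRF9: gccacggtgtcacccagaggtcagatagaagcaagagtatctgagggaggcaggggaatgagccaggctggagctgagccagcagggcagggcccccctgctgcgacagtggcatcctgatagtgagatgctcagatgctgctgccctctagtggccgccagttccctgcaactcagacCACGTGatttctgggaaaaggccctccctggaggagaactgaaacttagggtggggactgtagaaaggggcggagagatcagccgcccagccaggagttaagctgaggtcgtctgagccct
IFIT3: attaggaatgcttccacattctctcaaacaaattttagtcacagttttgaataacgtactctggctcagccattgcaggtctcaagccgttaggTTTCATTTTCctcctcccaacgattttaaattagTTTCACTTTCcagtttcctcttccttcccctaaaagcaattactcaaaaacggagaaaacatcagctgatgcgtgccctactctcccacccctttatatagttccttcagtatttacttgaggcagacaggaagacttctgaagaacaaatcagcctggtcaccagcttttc

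Most of these genes were lower in MYC-ON than in MYC-OFF in SHEP. Of the 32 tested, 26 were lower in MYC-ON (over all 14362 genes 38.9% were), 1 was higher (33% over all genes) and 5 were not called. A fall of at least 1.5-fold (0.66 on the log2 scale) was seen for 15 of them, against 11.4% of all genes. The median difference of the 32 was -0.608, beside -0.0364 over all genes. The MYC-OFF and MYC-ON ranges did not overlap for 10 of the 32, all lower in MYC-ON, against 6.36% of all genes tested. In 17 of the 32 the MYC-ON library was the lower one in all 28 pairs of the same series and CT, against 16.3% of all genes. Within each SHEP series alone, 24 of the 26 were also called lower, the exceptions being IFIH1 and OAS3. Of all 14362 genes, 5149 were called lower in series 1 alone and 5402 in series 2 alone. The share of all genes called lower in both was not computed. With the mean of each series as 1 sample, 2 against 2, 21 of the 32 were called lower, against 28.9% of all genes. Of the 26, IRF3, IFIH1, IFITM2, OAS3 and DTX3L lost their call. The share of all genes called lower that kept the call was not computed.

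In SKNAS the direction was the same, and its extent varied with the allowance made for the library medians. Of 31 tested, 21 were lower in MYC-ON (34.2% over all 13886 genes), 1 was higher (13.9%) and 9 were not called. A fall of at least 1.5-fold was seen for 13, against 23.8% of all genes. The median difference was -0.632 beside -0.287 over all genes, and MYC-ON libraries had the lower medians on average. Why they were lower was not tested. After median-of-ratios rescaling, which moved the median of all genes to 0.0116, that of the genes described here was -0.319, with 14 lower (24.9% of all genes) and 3 higher (26.5%). Over all genes, rescaling moved the share of higher calls among calls from 28.8% to 51.6%. With the library median as a covariate 17 were lower (25.9% of all genes) and 3 higher (28.3%). In the libraries of high median alone 15 were lower (26.9%) and 3 higher (21.7%). Called lower under all of these were 10 genes: STAT2, IRF1, IRF9, STING1, IFIT2, IFIT3, IFITM2, OAS1, IFI44 and RSAD2. The share of all genes called lower under all of these was not computed. RSAD2 averaged 0.343 TPM in MYC-ON and passed the limit for a test only through MYC-OFF.

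**Figure D1:**
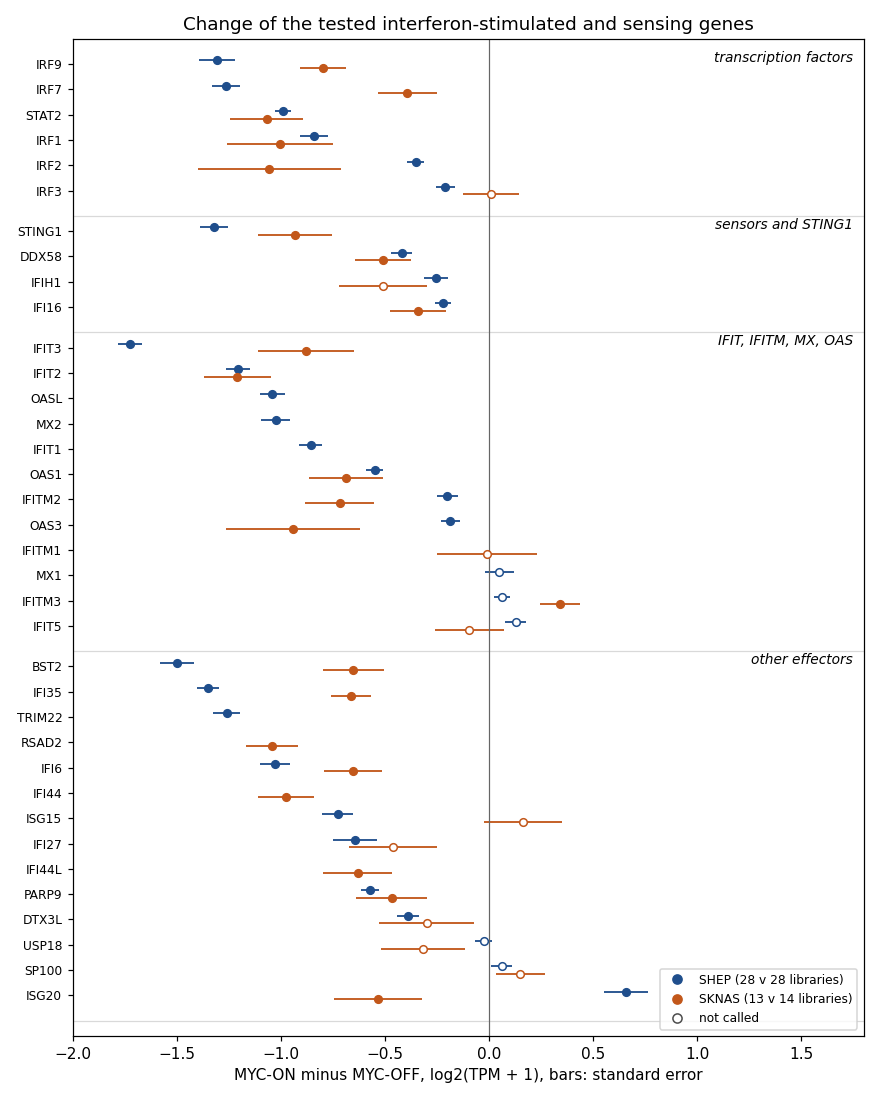
Differences between MYC-ON and MYC-OFF in log2(TPM + 1) for the 36 genes tested in SHEP (blue) or SKNAS (orange), grouped by role. Bars are standard errors, filled points were called and open points were not. Most filled points lie to the left of 0 in both lines, and ISG20 lies on opposite sides.

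All 6 transcription factors fell in SHEP and 5 fell in SKNAS. STAT2, the activating subunit of ISGF3, was at a lowest, median and highest of 22.5, 26 and 30.2 TPM in SHEP MYC-OFF and of 9.79, 13 and 16.2 TPM in MYC-ON. The ranges did not overlap, and STAT2 fell by 0.99 ± 0.039 (SE, adjusted p = 7.68e-27). In SKNAS STAT2 was at 7.27, 17.2 and 22.9 TPM in MYC-OFF and at 3.88, 6.11 and 11.9 TPM in MYC-ON, with ranges that overlapped through the 4 lowest MYC-OFF libraries. It fell by 1.07 ± 0.18 (adjusted p = 0.000154), and by 0.69 with the library median as a covariate.

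IRF9, the DNA-binding subunit of ISGF3, separated the groups fully in both lines. It was at 8.61, 11.2 and 16.8 TPM in SHEP MYC-OFF and at 2.04, 4.14 and 6.85 TPM in MYC-ON, a fall of 1.31 ± 0.085 (adjusted p = 9.98e-19). SKNAS held more of it, with 18.2, 23.1 and 27.9 TPM in MYC-OFF and 8.61, 13.4 and 16.1 TPM in MYC-ON. There it fell by 0.80 ± 0.11 (adjusted p = 3.27e-05) and by 0.78 with the covariate.

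IRF1, which activates interferon and antigen presentation genes, was at 31.1, 47.7 and 60.7 TPM in SHEP MYC-OFF and at 15.6, 25.6 and 36.5 TPM in MYC-ON. The ranges overlapped in part, and IRF1 was lower in all 28 pairs, by 0.84 ± 0.069 (adjusted p = 2.51e-15). In SKNAS IRF1 was at 2.69, 14.4 and 17.2 TPM in MYC-OFF and at 1.57, 4.35 and 10.8 TPM in MYC-ON, a fall of 1.00 ± 0.26 (adjusted p = 0.00463) that was 0.41 with the covariate. IRF7, the main amplifier of type I interferon production, was at 3.74, 5.87 and 7.85 TPM in SHEP MYC-OFF and at 1.16, 1.78 and 4.41 TPM in MYC-ON. It fell by 1.27 ± 0.067 (adjusted p = 5.62e-22), and 1 MYC-ON library, at 4.41 TPM, reached into the MYC-OFF range. In SKNAS IRF7 was at 3.08, 6.25 and 7.35 TPM against 2.47, 4.76 and 6.57 TPM, largely overlapping ranges, and fell by 0.39 ± 0.14 (adjusted p = 0.0332). That call was lost with rescaling (-0.08).

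IRF2, a relative of IRF1 that can oppose it, was at 19.2, 22 and 28.6 TPM in SHEP MYC-OFF and at 13.1, 16.5 and 22.5 TPM in MYC-ON, falling by 0.35 ± 0.041 (adjusted p = 1.43e-10). In SKNAS IRF2 was at 4.54, 39.6 and 53.2 TPM in MYC-OFF and at 2.26, 12.5 and 39.1 TPM in MYC-ON. The fall there was 1.06 ± 0.34 (adjusted p = 0.0192), and IRF2 moved with the library median. Libraries with a median of at least 3.8 averaged 43 TPM in MYC-OFF and 34.3 TPM in MYC-ON, while those with a median below 3.3 averaged 5.76 and 3.58 TPM. With the covariate the difference was -0.18 and was not called. IRF3, the constitutive factor that sensors activate by phosphorylation, was at 63.8, 77.7 and 98.2 TPM in SHEP MYC-OFF and at 54.1, 67.8 and 88.4 TPM in MYC-ON. Its ranges overlapped over most of their length, and it fell by 0.21 ± 0.047 (adjusted p = 8.11e-05). In SKNAS IRF3 was at 54.5, 73 and 120 TPM against 47.3, 66.2 and 132 TPM, a difference of 0.01 ± 0.13 (adjusted p = 0.96).

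**Figure D2:**
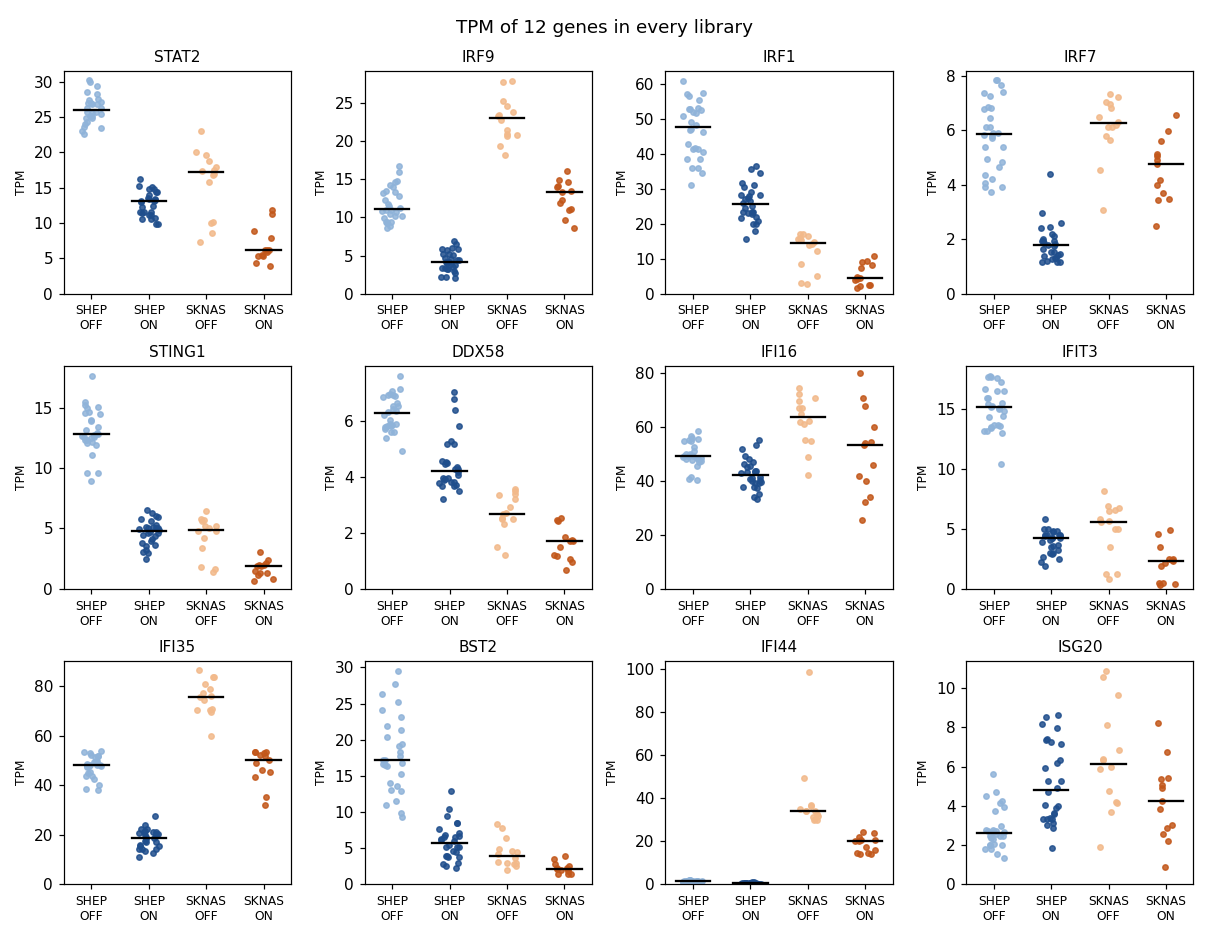
TPM of 12 genes in each of the 83 libraries, by line and group (OFF is MYC-OFF, ON is MYC-ON). Each point is 1 library and the bar is the group median. IRF9 and IFI35 show separate ranges in both lines, while IFI44 is near 1 TPM in SHEP and mostly near 34 TPM in SKNAS MYC-OFF.

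Of the 6 sensing genes, 4 were tested in each line, and all 4 fell in SHEP and 3 in SKNAS. STING1, the adaptor that passes the CGAS signal to TBK1 and IRF3, changed most. It was at 8.91, 12.8 and 17.6 TPM in SHEP MYC-OFF and at 2.48, 4.78 and 6.56 TPM in MYC-ON, ranges that did not overlap, with a fall of 1.32 ± 0.068 (adjusted p = 1.34e-22). In SKNAS STING1 was at 1.43, 4.9 and 6.48 TPM against 0.612, 1.88 and 3.05 TPM, overlapping only in the lowest MYC-OFF libraries. The fall was 0.93 ± 0.18 (adjusted p = 0.00055), and 0.57 with the covariate. CGAS itself was listed at 0 in 21 of 28 SHEP MYC-OFF, 23 of 28 SHEP MYC-ON, 3 of 14 SKNAS MYC-OFF and 6 of 13 SKNAS MYC-ON libraries. Its highest value in any library was 0.167 TPM, so STING1 was expressed in both lines with CGAS transcripts near 0.

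DDX58, which recognises RNA with a free triphosphate end, was at 4.91, 6.26 and 7.6 TPM in SHEP MYC-OFF and at 3.21, 4.21 and 7.03 TPM in MYC-ON. The ranges overlapped, and DDX58 was lower in 26 of 28 pairs, by 0.42 ± 0.051 (adjusted p = 4.24e-10). In SKNAS it was at 1.21, 2.68 and 3.57 TPM against 0.66, 1.7 and 2.53 TPM, a fall of 0.51 ± 0.14 (adjusted p = 0.0064). The call was kept with the covariate (-0.30) and not in the high-median libraries (-0.20). IFIH1, which recognises long double-stranded RNA, was at 4.92, 7.76 and 10.2 TPM in SHEP MYC-OFF and at 3.66, 6.18 and 9.99 TPM in MYC-ON. Those ranges nearly coincided at the top, and the fall of 0.25 ± 0.056 (adjusted p = 7.36e-05) was not called in 1 of the 2 series alone (-0.17). In SKNAS IFIH1 was at 1.42, 5.03 and 7.24 TPM against 0.989, 3.04 and 6.78 TPM, a difference of -0.51 ± 0.21 (adjusted p = 0.0584).

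IFI16, a nuclear DNA sensor, was the most abundant of the sensing genes. It was at 40.4, 49.3 and 58.5 TPM in SHEP MYC-OFF and at 33.5, 42.3 and 55.3 TPM in MYC-ON, broadly overlapping, with a fall of 0.22 ± 0.039 (adjusted p = 1.88e-06), a call lost with the covariate (-0.15). In SKNAS IFI16 was at 42.1, 63.7 and 74.5 TPM against 25.6, 53.3 and 80.1 TPM. The highest library was a MYC-ON one, and the fall of 0.34 ± 0.14 (adjusted p = 0.0483) was lost in each allowance for the library median. DHX58, also called LGP2, a relative of DDX58 without signalling domains, had group means between 0.267 TPM (SHEP MYC-ON) and 1.19 TPM (SKNAS MYC-OFF).

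Among the IFIT, IFITM, MX and OAS families, 11 of 13 were tested in SHEP, where 8 fell and 3 were not called, and 8 in SKNAS, where 5 fell, 1 rose and 2 were not called. The IFIT genes, whose proteins bind viral RNA ends, lie side by side on chromosome 10 (IFIT3 at chr10:89327307-89377473 and IFIT1 at chr10:89392546-89406487, GENCODE v44, GRCh38). IFIT3 was at 10.4, 15.1 and 17.7 TPM in SHEP MYC-OFF and at 1.94, 4.25 and 5.85 TPM in MYC-ON, ranges far apart. Its fall of 1.72 ± 0.058 (adjusted p = 1.42e-29) left mean TPM at 0.261 of the MYC-OFF mean. In SKNAS IFIT3 was at 0.861, 5.6 and 8.13 TPM against 0.359, 2.29 and 4.93 TPM, with a fall of 0.88 ± 0.23 (adjusted p = 0.00564) that was 0.33 with the covariate. IFIT2 was at 2.96, 4.72 and 6.32 TPM in SHEP MYC-OFF and at 0.781, 1.44 and 2.11 TPM in MYC-ON, again without overlap, and fell by 1.21 ± 0.057 (adjusted p = 6.08e-24). In SKNAS IFIT2 was at 0.741, 4.46 and 5.46 TPM against 0.345, 0.951 and 1.95 TPM. It was lower in all 13 SKNAS pairs, by 1.21 ± 0.16 (adjusted p = 2.02e-05), and by 0.89 with the covariate.

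IFIT1 fell in SHEP from a mean of 2.64 to 1.04 TPM (-0.86) and was below the limit for a test in SKNAS. IFIT5, which lies beyond IFIT1 on the same chromosome, was not called in either line. Its mean was 10.7 and 11.9 TPM in the SHEP groups (0.13, adjusted p = 0.017) and 10.6 and 10.1 TPM in SKNAS (-0.09). It was called higher in both lines after rescaling (0.17 in SHEP and 0.22 in SKNAS).

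The OAS enzymes make the second messenger that activates RNase L, and MX proteins are antiviral GTPases. OAS1 fell in SHEP (mean 11.8 to 7.75 TPM, -0.55) and in SKNAS (4.63 to 2.37 TPM, -0.69). OASL, a relative without that enzyme activity, fell in SHEP from 2.22 to 0.548 TPM (-1.04). MX2 fell there from 4.05 to 1.52 TPM (-1.03), both without overlap. OASL and MX2 had means under 0.25 TPM in SKNAS. MX1 was not called in SHEP (2.16 and 2.33 TPM, 0.05). OAS3 fell in SHEP by 0.19 (28.7 to 25.1 TPM), a call lost with rescaling or the covariate. In SKNAS OAS3 fell by 0.94 (15.4 to 7.38 TPM), and by 0.12, not called, with the covariate. OAS2 averaged 0.568 TPM or less in each group.

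The IFITM proteins hold viruses in endosomes, and IFITM3 was the most abundant of the 39 genes, with group means between 492 and 763 TPM. IFITM3 rose in SKNAS from 598 to 763 TPM (0.34 ± 0.096, adjusted p = 0.00888), and the call was kept with rescaling and the covariate. In SHEP it was not called (492 and 515 TPM, 0.06). IFITM2 fell in both lines, by 0.20 in SHEP (205 to 180 TPM) and by 0.72 in SKNAS (50.9 to 30.3 TPM). IFITM1 averaged 1.25 TPM or less. These 3 genes are related copies on chromosome 11, so the split of reads from stretches that they share is uncertain.

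Of the 14 other effectors, 11 were tested in SHEP (8 fell, 1 rose, 2 not called) and 13 in SKNAS (8 fell, 5 not called). BST2, or tetherin, which holds budding virus at the membrane, was at 9.31, 17.1 and 29.5 TPM in SHEP MYC-OFF and at 2.27, 5.73 and 12.9 TPM in MYC-ON. The ranges overlapped, but all 28 pairs were lower in MYC-ON, by 1.5 ± 0.082 (adjusted p = 1.34e-21). In SKNAS BST2 was at 1.97, 3.91 and 8.32 TPM against 1.34, 2.13 and 3.95 TPM and fell by 0.65 ± 0.14 (adjusted p = 0.00176), a call lost with rescaling (-0.40). IFI35, a partner of the signalling protein NMI, was at 38, 48.2 and 54 TPM in SHEP MYC-OFF and at 11, 18.8 and 27.7 TPM in MYC-ON. It fell by 1.35 ± 0.051 (adjusted p = 1.5e-27). In SKNAS IFI35 was at 60, 75.7 and 86.4 TPM against 31.8, 50.1 and 53.6 TPM, a fall of 0.66 ± 0.094 (adjusted p = 3.85e-05) that was 0.68 with the covariate and -0.32, not called, with rescaling. Neither line had overlapping ranges for IFI35.

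IFI44, a protein of the cytoplasm with a GTP-binding motif, and RSAD2, or viperin, which makes a chain-terminating nucleotide, were read mainly in SKNAS. IFI44 was at 29.6, 33.8 and 98.6 TPM in SKNAS MYC-OFF and at 13.8, 19.9 and 24.3 TPM in MYC-ON. The groups did not overlap, and the fall was 0.98 ± 0.14 (adjusted p = 3.12e-05) and 1.14 with the covariate. The value of 98.6 TPM came from the MYC-OFF library at CT 56, which had the lowest median of its group. RSAD2 was at 0.443, 2.07 and 3.09 TPM in SKNAS MYC-OFF and at 0.0465, 0.313 and 0.865 TPM in MYC-ON. It was lower in all 13 pairs, by 1.04 ± 0.13 (adjusted p = 8.53e-06). In SHEP, IFI44 averaged 1.14 and 0.363 TPM and RSAD2 was listed at 0 in 27 of 28 libraries of each group. IFI44L, the neighbour of IFI44, fell in SKNAS from 1.6 to 0.66 TPM (-0.63), a call lost with the covariate.

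ISG20, an RNA exonuclease, was the one gene called in opposite directions. It rose in SHEP from a mean of 2.82 to 5.16 TPM (0.66 ± 0.10, adjusted p = 2.43e-07), higher in MYC-ON in 23 of 28 pairs. It fell in SKNAS from 6.39 to 4.26 TPM (-0.53 ± 0.21, adjusted p = 0.047), a call lost after rescaling (-0.23) and kept with the covariate (-0.93). ISG15, the ubiquitin-like modifier, fell in SHEP from 90.2 to 54.8 TPM (-0.73), lower in all 28 pairs. In SKNAS ISG15 had means of 84.6 and 99.7 TPM (0.16, adjusted p = 0.483), while in the high-median libraries alone it was called lower (-0.51). USP18, which removes ISG15 from proteins, was not called in SHEP (6.33 and 6.18 TPM) or SKNAS (4.83 and 3.75 TPM).

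TRIM22, a ubiquitin ligase, fell in SHEP from 33.3 to 13.3 TPM (-1.26), and was near 0 in SKNAS. IFI6, a membrane protein that limits cell death, fell in SHEP (54.8 to 26.7 TPM, -1.03) and in SKNAS (66 to 41.7 TPM, -0.65), the latter call being lost with rescaling (-0.31). IFI27, its relative, fell from 1.53 to 0.604 TPM in SHEP (-0.64), and in SKNAS had a difference of -0.46 (adjusted p = 0.0833). PARP9 and DTX3L, which form a complex at damaged chromatin, fell in SHEP by 0.57 and 0.39, from 12.8 and 21.5 TPM. In SKNAS PARP9 fell by 0.47, lost with the covariate, and DTX3L had a difference of -0.30 that was not called. Those 2 genes lie on opposite strands of chromosome 3 and overlap at their starts, so reads of their first exons may be mixed. SP100, a nuclear body protein, was not called in either line (33.7 and 35.9 TPM in SHEP, 52.7 and 58.6 TPM in SKNAS), and was called higher in SKNAS after rescaling (0.49).

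The 2 lines were then compared. Of the 27 genes tested in both, 17 fell in both, 1 was called in opposite directions, 5 were called in SHEP only, 1 in SKNAS only and 3 in neither. Of all genes, 38.9% fell in SHEP and 34.2% in SKNAS, and the share that fell in both was not computed. The difference between the effects was tested as an interaction over 36 genes, with a threshold of 1.5-fold. The SKNAS difference lay above that in SHEP for 8 genes (5.02% of 15942 genes) and below it for 4 (16.2%). Of the 8, MX2 (0.96), OASL (0.83) and TRIM22 (1.17) were at or near 0 in SKNAS in both groups. IFIT3 (0.84 ± 0.16, adjusted p = 2.36e-05), BST2 (0.85), IRF7 (0.87) and IFI35 (0.69) fell less in SKNAS on this scale, and ISG15 (0.89) was not called in SKNAS. The ISG15 interaction was lost with the covariate (0.59) and in the high-median libraries (0.22), and in the latter ISG15 was called lower in SKNAS (-0.51). That of IRF7 was lost in the high-median libraries (0.55). Below the SHEP difference were ISG20 (-1.19 ± 0.21, adjusted p = 2.3e-06), RSAD2 (-1.04), which was near 0 in SHEP, and OAS3 (-0.76) and IRF2 (-0.70), both lost with rescaling, with the covariate or without either SHEP series. BST2 and IFI35 (0.65 each) were lost without SHEP series 1, and IFI35 also with the covariate (0.63). The median of the interaction over all genes was -0.219. IFIT3, MX2, OASL, TRIM22, ISG20 and RSAD2 kept their call under all alternatives of scaling, pseudocount and libraries. For STAT2 (-0.08, adjusted p = 0.595), IRF1 (-0.16), OAS1 (-0.14) and DDX58 (-0.09) no difference between the lines was called.

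**Figure D3:**
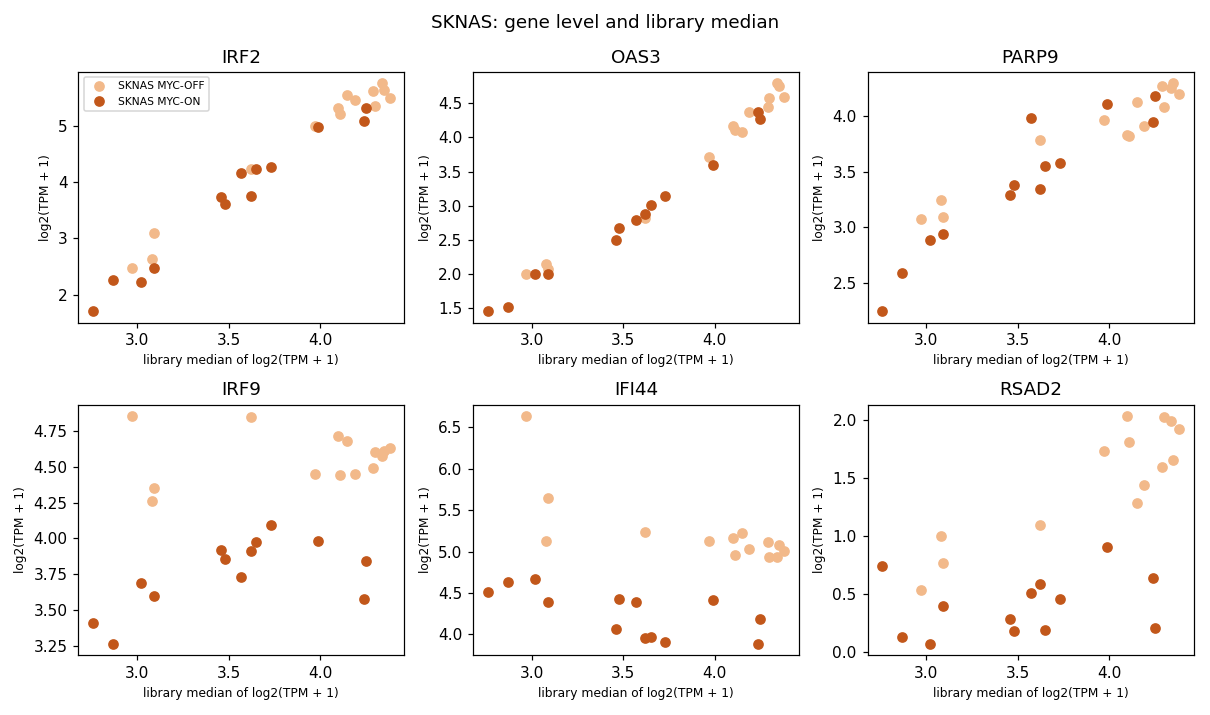
Level of 6 genes in log2(TPM + 1) against the library median of log2(TPM + 1) in the 14 MYC-OFF (light) and 13 MYC-ON (dark) SKNAS libraries. IRF2, OAS3 and PARP9 rise with the median in both groups, whereas for IRF9 and IFI44 all MYC-ON points lie below all MYC-OFF points.

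The lines also differed in MYC-OFF cells, which were harvested in parallel with the MYC-ON cells. On a scale where the median of all genes was -0.148, 5 of 37 genes tested were at least 1.5-fold higher in SKNAS than in SHEP MYC-OFF cells (20.7% of 15993 genes) and 16 were lower (31.1%). In SKNAS libraries of high median alone 7 were higher and 12 lower (3833 and 3819 of all genes). With rescaling 7 were higher and 13 lower (3991 and 4353), and with the covariate 8 and 12 (3846 and 3814). The genes named next are those called with all libraries and no such allowance, so not all lower calls are kept with it. Higher in SKNAS were IFI44 (4.16), RSAD2 (1.49), IFI44L (1.31), IRF9 (0.91) and ISG20 (0.90). Lower in SKNAS were TRIM22 by far (-4.97, 33.3 against 0.0894 TPM), then MX2 (-2.22), IFITM2 (-2.05), IRF1 (-2.0), BST2 (-1.86), IFIT3 (-1.59) and STING1 (-1.46), the others being IFIT1, OAS1, OAS3, OASL, MX1, STAT2, DDX58, IFIH1 and DTX3L. The order by mean TPM in SHEP MYC-OFF began with IFITM3 (492), IFITM2 (205), ISG15 (90.2) and IRF3 (78.8). In SKNAS MYC-OFF it began with IFITM3 (598), ISG15 (84.6), IRF3 (77.7), IFI35 (75.6) and IFI6 (66). In SKNAS the SDs of ISG15 (40.4), IRF3 (18.4) and IFI35 (7.05) exceed the gaps between these neighbours in at least 1 of each pair, so their order there was not told apart.

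Genes around the 39 were taken from lists of the pathway. None of the 9 interferon genes reached the limit for a test. IFNB1 averaged 0.047 TPM in SHEP MYC-OFF and was listed at 0 in every SKNAS library, and IFNE was the highest at 0.536 TPM in SHEP MYC-OFF. Of 12 genes of interferon reception, signalling and feedback, 11 were tested in each line. In SHEP 6 fell and 1 rose, and in SKNAS 7 fell. Over all genes 38.9% fell and 33% rose in SHEP, and 34.2% fell and 13.9% rose in SKNAS. JAK1, the kinase shared by all interferon receptors, fell in SHEP from 70.1 to 39.2 TPM (-0.82) and in SKNAS from 48.9 to 20.5 TPM (-1.31, and -0.64 with the covariate). IFNAR1 and IFNAR2, the type I receptor chains, fell by 0.21 and 0.18 in SHEP and by 0.74 and 0.92 in SKNAS, where IFNAR1 was lost with the covariate (-0.07). TYK2 was not called in SHEP (-0.13) or SKNAS (0.06).

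Of 12 other sensors and adaptors, 11 were tested in SHEP (6 fell, 5 rose) and 10 in SKNAS (5 fell, 2 rose). The shares over all genes (38.9% lower and 33% higher in SHEP, 34.2% and 13.9% in SKNAS) apply to each list here. Whether a list departs from these shares was not tested. MAVS, the mitochondrial adaptor of DDX58 and IFIH1, fell in SHEP from 20.4 to 12.1 TPM (-0.72) and in SKNAS from 11 to 5.33 TPM (-0.86). TBK1, the kinase downstream of MAVS and STING1, rose in SHEP from 28.7 to 34 TPM (0.23) and was not called in SKNAS (-0.19). Of 9 genes of nucleic acid clearance and editing, 5 of 9 tested fell and 1 rose in SHEP, and 1 of 7 fell and 2 rose in SKNAS. Among 39 further interferon-stimulated genes, 30 were tested in SHEP (24 fell, 1 rose) and 33 in SKNAS (21 fell, 1 rose), with medians of -0.576 and -0.574. The largest changes in SHEP were those of SAMD9L, a growth-restraining antiviral factor (-2.19, 15 to 2.57 TPM), UBA7, the activating enzyme for ISG15 (-1.92, 13.6 to 2.91 TPM), and TNFSF10, the death ligand TRAIL (-1.77, 6.44 to 1.08 TPM). In SKNAS they were those of the guanylate-binding proteins GBP2 (-1.70, 18.1 to 4.98 TPM) and GBP3 (-1.42, 9.5 to 2.96 TPM) and of SAMD9L (-1.47).

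Time was examined last, as a linear trend in log2(TPM + 1) per 24 h, called at 0.15 or more. In SHEP MYC-OFF 6 of 32 genes rose (2.92% of genes) and 1 fell (5.1%). BST2 rose most (0.49 ± 0.066 per 24 h, adjusted p = 4.9e-06), followed by IFIT2 (0.22), IRF1 (0.21), IFI6 (0.20), STING1 (0.20) and TRIM22 (0.17), and IRF9 fell (-0.18). These calls rest on series 1: without it none was made, and the BST2 slope was 0.31. In SHEP MYC-ON 8 rose (16.6% of genes) and 9 fell (30.9%). Rising in each series alone were ISG20 (0.58 ± 0.077), BST2 (0.44), MX1 (0.43), SP100 (0.34), IFIH1 (0.29), DDX58 (0.23) and IRF2 (0.18), while IRF9 (0.21) rose in 1 series only. Falling in each series alone were IFIT3 (-0.37 ± 0.047), IFIT1 (-0.33), IFI35 (-0.33) and PARP9 (-0.31).

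The slopes differed between MYC-ON and MYC-OFF in SHEP for 21 of 32 genes, 6 above (14.6% of genes) and 15 below (24.6%). Called in both series alone were ISG20 (0.68 ± 0.13 per 24 h, adjusted p = 2.7e-05), MX1 (0.44) and SP100 (0.34) upwards, and STING1 (-0.43 ± 0.078, adjusted p = 7.3e-06), IFIT3 (-0.38), IFI35 (-0.37), IFIT1 (-0.33), IFIT2 (-0.33) and PARP9 (-0.31) downwards. STING1 thus rose in MYC-OFF and fell in MYC-ON (-0.23), so that the gap between the groups widened with time. MX1, whose mean was not called different, began lower in MYC-ON and ended higher. In SKNAS no gene of the 39 had a called trend in MYC-OFF (0% of genes) or MYC-ON (0.0864%), and 5 and 0 of the 31 tested had an unadjusted limma p under 0.05, against 36.6% and 6.29% of all genes.

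A 24 h rhythm was tested as a cosine and sine term beside the linear trend. None of the genes was called by limma in SHEP MYC-OFF (0.0975% of genes), SHEP MYC-ON (0.0139%), SKNAS MYC-OFF (0%) or SKNAS MYC-ON (0%). At an unadjusted limma p under 0.05 there were 5 of 32 in SHEP MYC-OFF (IFI16, IFITM2, OAS3, PARP9 and USP18), 1 in SHEP MYC-ON (IFIH1) and 0 of 31 in each SKNAS group. Over all genes the counts at that p were 1527, 1561, 58 and 37.

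**Figure D4:**
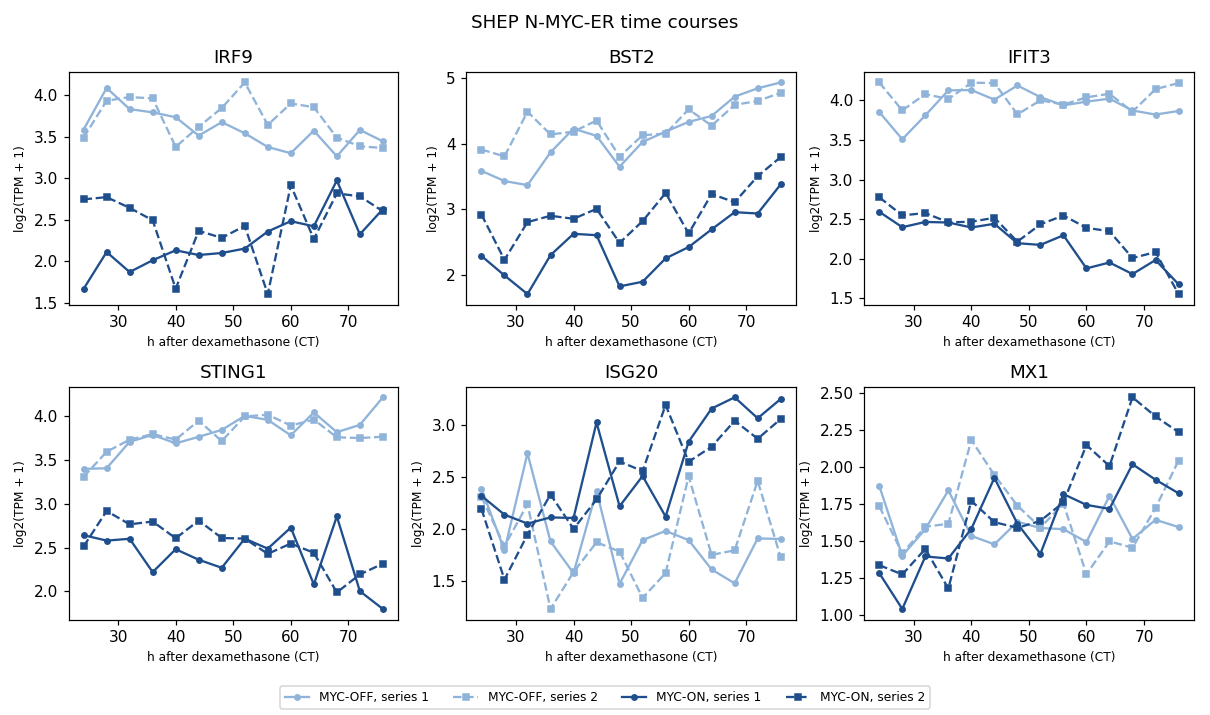
Level in log2(TPM + 1) of 6 genes against CT in SHEP MYC-OFF (light) and MYC-ON (dark), with series 1 as circles on solid lines and series 2 as squares on broken lines. IRF9, BST2, IFIT3 and STING1 are lower in MYC-ON throughout, while ISG20 and MX1 rise with CT in MYC-ON.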

How the data were processed

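Poly-A RNA-seq was analysed from 83 libraries of SHEP and SKNAS cells. The authors quantified reads with Salmon 1.3.0 (per the submitters' processing notes) against a Gencode transcriptome of GRCh38, summarised them to genes with Tximport and deposited TPM values, which sum to 1e+06 per library over 60237 gene entries. TPM keeps no depth, so the depth of each library is unknown and no counting interval is given. Groups, series and CT came from the labels, and 0 columns of per-sample values were left out. The labels cannot be checked by N-MYC mRNA, because activation is by ligand.

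Values were tested as log2(TPM + 1) with limma 3.58.1 (limma-trend, R 4.3.3), over genes with a mean of at least 1 TPM in the line. P-values were 2-sided, with Benjamini-Hochberg adjustment over all genes tested. CT was a factor in the comparisons of groups and of lines. It was a linear term in the trends and where SKNAS libraries were left out by their median, so those alternatives changed the model as well as the libraries. The fit of series means held no CT. A gene was called where its adjusted p was 0.05 or less and its log2 difference 0.15 or more (0.66 between lines). The 24 h cosinor needed the adjusted p alone. Scripts were tested on simulated data. All 39 genes were named, with full values for the 6 largest called changes in each line and for listed factors and sensors. Of the other pathway genes, the 3 largest called changes in each line and a few signalling genes were named, and some marker and pathway genes are not reported here. The members and lists were chosen with earlier results of these data known. The SHEP series numbers pair MYC-OFF and MYC-ON libraries of 1 experiment: series deviations correlated across 14362 genes at r = 0.489. Alternatives were a pseudocount of 0.1, no filter, median-of-ratios rescaling, the library median as a covariate, SKNAS libraries with a median of at least 3.8 only, each SHEP series left out, series means and a replicate block. Leaving out SKNAS libraries with a median below 3.3 was added after seeing the data.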

Additional observations from a re-analysis of the deposited data

Results flagged for a closer look

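The change from MYC-OFF to MYC-ON differed between SKNAS and SHEP, by the interaction test, for 12 of the 36 genes tested. Values are the SKNAS difference minus the SHEP difference in log2(TPM + 1). It was above 0 for TRIM22 (1.17), MX2 (0.96), ISG15 (0.89), IRF7 (0.87), BST2 (0.85), IFIT3 (0.84), OASL (0.83) and IFI35 (0.69). It was below 0 for ISG20 (-1.19), RSAD2 (-1.04), OAS3 (-0.76) and IRF2 (-0.70). TRIM22, MX2 and OASL were at or near 0 TPM in SKNAS, and RSAD2 was at or near 0 TPM in SHEP, so for these 4 the difference is that of a gene read in 1 line. For ISG20, IFIT3, IRF7, BST2, ISG15, IFI35, OAS3 and IRF2 both lines gave a value above 1 TPM. With the library median as a covariate the differences were -0.09 for OAS3, 0.13 for IRF2, 0.59 for ISG15 and 0.63 for IFI35, none of them called. In SKNAS libraries of high median they were 0.22 for ISG15 and 0.55 for IRF7, not called, and BST2 (0.65) was not called without SHEP series 1.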

How the results depend on the processing

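The counts of genes called lower stayed within 1.5 times in SHEP (21 to 29) and SKNAS (14 to 21). The replicate block, which uses the pairing of the SHEP series, left 26 lower and 1 higher and changed no call. Genes called higher in SHEP were 2 with no filter, rescaling or the covariate and 1 to 2 without a series. Those called higher in SKNAS were 3 with rescaling, the covariate or high medians only, and 2 without the lowest medians. The interaction was lower for 2 genes with rescaling, the covariate or without either SHEP series. SKNAS was higher than SHEP in MYC-OFF for 8 genes with a pseudocount of 0.1 or the covariate and 9 without the lowest medians. Rising trends in SHEP MYC-OFF were 0 to 5 without a series, and falling ones 0 with rescaling or the covariate and 0 to 1 without a series. Falling trends in SHEP MYC-ON were 5 with the covariate. Signs turned in SKNAS for IFI16 (0.0010 rescaled, 0.06 high medians), IFIT5 (0.22 rescaled, 0.24 covariate, 0.34 high medians) and ISG15 (-0.51 high medians), for the IRF2 interaction (0.13 covariate, 0.03 high medians) and for the ISG15 trend difference (0.03 without series 2). The cause was not tested. Precision is limited by the unknown depth, by 3 MYC-ON libraries of high median and by 1 series in SKNAS.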
